A study of Mus musculus with 16 samples.

Results

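The 10 genes described here are markers of the 2 tissues that line and fill the mouse abdomen, the peritoneal mesothelium and fat. Msln, Upk3b, Lrrn4, Wt1 and Bnc1 were taken as mesothelial markers and Adipoq, Fabp4, Plin1, Cidec and Lep as adipocyte markers. This choice was made with earlier results of these data known. They are 10 of 22298 genes with a count, and all 10 had at least 10 reads over the tumors and were tested. Tumors came from wild-type, 6-week-old 615-line mice that had received 500000 MFC cells, a mouse forestomach (gastric) cancer line, into the peritoneal cavity. The 8 tumors of the vehicle group were from mice given PBS, and the 8 of the IL-33 treatment group from mice given 20 μg/kg IL-33, a cytokine of the IL-1 family, by the same route every other day. All 16 tumors thus hold cells of 1 cancer line in 1 mouse strain, and each library is RNA of a whole piece of abdominal tumor with whatever host tissue it held. The labels do not tie the 8 tumors of a group to separate mice, so the p-values measure the spread between tumors, which may be partly technical. Some experiments of the study with this model used fewer than 8 mice per group, so tumors may share a mouse, and the p-values, which treat tumors as independent, would then be too small.

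The mesothelium is the flat epithelium that covers the abdominal wall, the omentum, the mesentery and the organs, and tumor cells that spread through the abdomen attach to it. Msln encodes mesothelin, a surface protein anchored by a lipid, which several carcinomas also make. Upk3b encodes an uroplakin and Lrrn4 a membrane protein with leucine-rich repeats, both used as markers of mesothelium. Wt1 encodes a zinc finger transcription factor of the mesothelium that is also present in the ovary, the uterus and the kidney, and Bnc1 encodes basonuclin 1, a zinc finger protein of stratified epithelia, germ cells and mesothelium. Beneath the mesothelium of the omentum and mesentery lies white fat. Its cells secrete adiponectin (Adipoq) and leptin (Lep), carry fatty acids on the binding protein FABP4, and coat their lipid droplet with perilipin 1 (Plin1) and with CIDEC, which joins small droplets into large ones. FABP4 is also made by macrophages and by endothelial cells of small vessels, whereas Adipoq and Plin1 are nearly confined to adipocytes.

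On the GRCm38 build the mesothelial genes lie apart, Msln at 25748613 to 25754378 of chromosome 17 (minus strand), Upk3b at 136038496 to 136046487 of chromosome 5 (plus strand) and Bnc1 at 81966672 to 81992292 of chromosome 7 (minus strand). Lrrn4 (132868305 to 132880891, minus strand) and Wt1 (105126529 to 105173616, plus strand) are both on chromosome 2. Among the adipocyte genes, Adipoq is at 23146536 to 23158028 of chromosome 16 (plus strand), Fabp4 at 10204088 to 10208576 of chromosome 3 (minus strand) and Plin1 at 79720218 to 79732903 of chromosome 7 (minus strand). Cidec (113424634 to 113435760, minus strand) and Lep (29060220 to 29073877, plus strand) are on chromosome 6. Of the 10, Bnc1 alone overlapped another annotated gene, a pseudogene on the opposite strand (81992002 to 81992292), which has no row in the files.

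The bases before the transcription start are shown for 4 of the members. RefSeq promoter windows on GRCm38.p6 were given for 7 of the 10 members, and not for Msln, Wt1 and Fabp4. The 250 bases upstream of the RefSeq start were searched on both strands for 5 motifs, here in capitals. These were TATAAA (the TATA box), CCAAT (the CCAAT box), GGGCGG (the GC box), AGGTCA (an element of nuclear receptors) and GAGGAAGT (an element of ETS factors). Parts of the windows of Lrrn4 (with its AGGTCA) and Plin1, and 1 window of Cidec, lie within the gene as placed above. Upk3b is at chr5:136038246-136038495 (plus strand), Lrrn4 at chr2:132880863-132881112 (minus), Bnc1 at chr7:81992300-81992549 (minus) and Adipoq at chr16:23146286-23146535 (plus), each read 5′ to 3′ in the direction of its gene.
Upk3b: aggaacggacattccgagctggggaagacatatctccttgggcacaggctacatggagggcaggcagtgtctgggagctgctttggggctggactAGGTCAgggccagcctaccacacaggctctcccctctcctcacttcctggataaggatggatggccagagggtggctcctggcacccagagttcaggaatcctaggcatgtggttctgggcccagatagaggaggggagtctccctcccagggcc
Lrrn4: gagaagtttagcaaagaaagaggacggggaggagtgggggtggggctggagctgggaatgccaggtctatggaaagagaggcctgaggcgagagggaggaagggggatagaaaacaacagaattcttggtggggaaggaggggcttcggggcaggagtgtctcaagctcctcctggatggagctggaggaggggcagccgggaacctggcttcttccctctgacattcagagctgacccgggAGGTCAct
Bnc1: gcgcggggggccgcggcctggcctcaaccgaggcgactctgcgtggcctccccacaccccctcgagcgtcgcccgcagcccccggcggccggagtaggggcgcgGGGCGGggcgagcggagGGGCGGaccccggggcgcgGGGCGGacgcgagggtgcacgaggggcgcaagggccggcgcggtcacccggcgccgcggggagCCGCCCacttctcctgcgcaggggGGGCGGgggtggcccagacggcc
Adipoq: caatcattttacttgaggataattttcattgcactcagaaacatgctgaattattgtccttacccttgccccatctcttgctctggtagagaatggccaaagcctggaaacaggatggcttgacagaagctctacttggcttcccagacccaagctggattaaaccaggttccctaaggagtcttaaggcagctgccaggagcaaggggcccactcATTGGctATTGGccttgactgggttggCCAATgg
Upk3b and Lrrn4, which were low in 15 tumors and high in the same 1, each held AGGTCA, a sequence held by 14.02% of 32851 windows of this length. Bnc1, which was present in every tumor, held GGGCGG at 5 places (32.7% of windows hold it at least at 1), and 83.6% of its bases were G or C, against a median of 52.4% over all windows. Adipoq held CCAAT at 3 places, all within 34 bases of the start (33.9% of windows hold it). The windows of Plin1 and both windows of Cidec held none of the 5 motifs, and that of Lep held GGGCGG at 1 place. TATAAA, found in 12.4% of windows, and GAGGAAGT, found in 2.44%, were in no window of the 7 genes. No match overlapped a match to another motif, and Plin1 and Cidec, whose levels varied with those of Adipoq, did not hold CCAAT.

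Levels are given as CPM, the reads of a gene scaled to the total count of the tumor. The totals were 14139268 to 24290794 reads per vehicle tumor and 16569613 to 24288893 per IL-33 tumor, so that 3 reads are near 0.1 to 0.2 CPM and the lowest values below rest on a few reads. IL-33 replicate 7 stood apart from the other 15 tumors. Of 16817 genes tested, 43.0% had their highest level in it and 17.6% were at least 10 times the vehicle mean, and its normalization factor (TMM) was 1.24. Genes of the ovary, the uterus and oviduct, and smooth muscle summed to 2090, 2172 and 6661 CPM in it, against at most 159, 28.0 and 423 CPM in any other tumor. Vehicle replicate 4 had the lowest factor (0.64). Results are therefore given with all 16 tumors and without IL-33 replicate 7.

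Msln was by far the most abundant of the mesothelial genes and did not follow the others. It lay between 448 and 789 CPM in the vehicle tumors (median 613) and between 375 and 1243 CPM in 7 IL-33 tumors, and was 92.5 CPM in IL-33 replicate 7. The highest levels were in IL-33 replicates 6 (1243), 2 (981) and 5 (882), and the lowest of all 16 was in IL-33 replicate 7, the tumor in which most other members peaked. There Msln was 6.67 times below the vehicle mean of 617 ± 109 (SD, n = 8). Msln made up 94.0% to 98.8% of the summed mesothelial reads in every tumor but IL-33 replicate 7, where it made up 29.0%. A sum over the 5 mesothelial genes is hence in nearly every tumor a measure of Msln.

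Bnc1 was also present throughout and also low in IL-33 replicate 7. Its vehicle levels were 7.21 to 33.7 CPM (median 23.2) and those of the IL-33 tumors 10.4 to 28.4 (median 20.3). The lowest were in vehicle replicate 4 (7.21), IL-33 replicate 7 (10.4) and IL-33 replicate 3 (10.5), and the groups overlapped over almost their whole range. Bnc1 and Msln were the 2 mesothelial members with the smallest spread among vehicle tumors, with a coefficient of variation of 35.7% and 17.7%, against 66.4% to 90.8% for Upk3b, Lrrn4 and Wt1.

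Upk3b, Lrrn4 and Wt1 were low in every tumor but 1, down to a few reads or none, and high in that tumor. Upk3b was 0.0494 to 2.15 CPM in the vehicle tumors (median 1.53) and 0 to 1.73 CPM in 7 IL-33 tumors, and reached 59.8 CPM in IL-33 replicate 7, 27.9 times the next highest tumor. Lrrn4 was 0 to 1.62 CPM in the vehicle tumors (median 0.635), 0.0909 to 1.84 in 7 IL-33 tumors and 17.8 in IL-33 replicate 7. Wt1 was 0.229 to 3.90 CPM in the vehicle tumors (median 1.16), 0.0454 to 3.57 in 7 IL-33 tumors and 139 in IL-33 replicate 7. In all 3 genes the remaining IL-33 tumors lay within or below the range of the vehicle tumors, except for Lrrn4 in IL-33 replicate 6 (1.84 CPM), and IL-33 replicate 7 alone held 93.2%, 78.6% and 90.9% of the reads of the IL-33 group on Upk3b, Lrrn4 and Wt1. Among the other tumors the summed level of these 3 genes was highest in vehicle replicates 3 (7.31 CPM) and 2 (6.62) and in IL-33 replicate 6 (7.14), and lowest in vehicle replicate 7 (0.457) and IL-33 replicate 1 (0.4998).

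**Figure D1:**
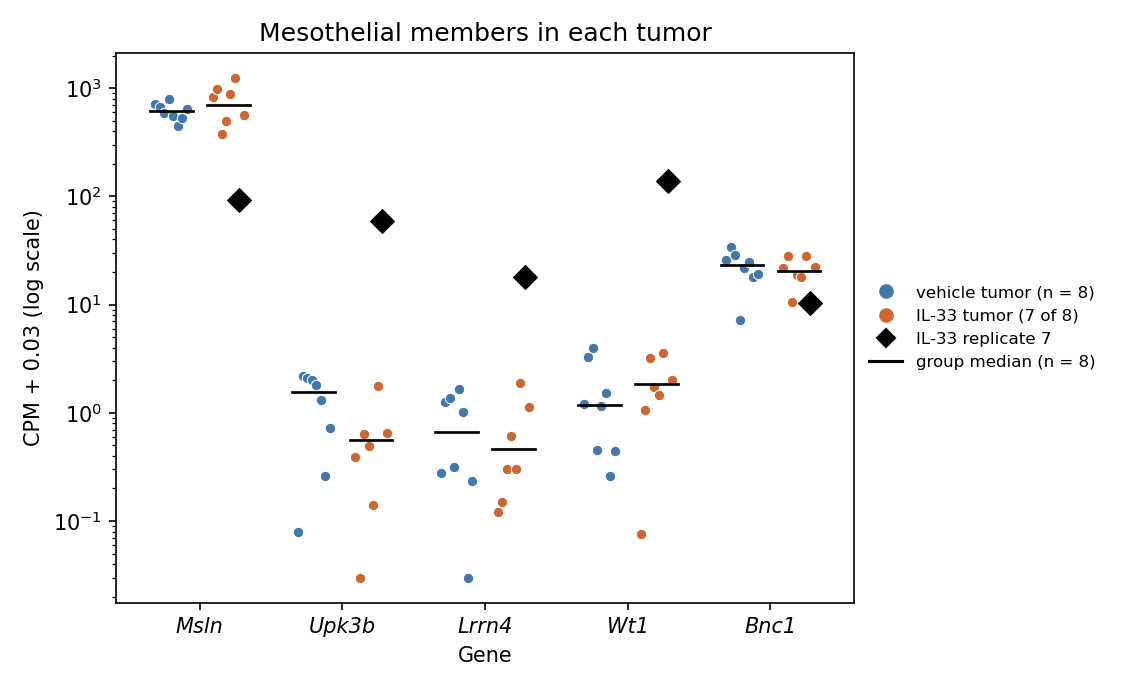
CPM of the 5 mesothelial genes in each of 16 tumors (y axis, CPM + 0.03 on a log scale), with vehicle tumors in blue, IL-33 tumors in orange, IL-33 replicate 7 as a black diamond and the median of each group of 8 as a bar. The diamond is the lowest point of Msln (92.5 CPM) and the highest of Upk3b (59.8), Lrrn4 (17.8) and Wt1 (139), while Bnc1 (10.4) lies low within its range.

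Adipoq, Plin1 and Cidec, the genes of the mature adipocyte, ranged widely within each group, down to few or no reads. Adipoq was 0.114 to 15.8 CPM in the vehicle tumors (median 2.81), 0 to 19.8 in 7 IL-33 tumors (median 1.03) and 253 in IL-33 replicate 7. Levels were highest in vehicle replicates 5 (15.8), 6 (12.6), 4 (6.36) and 3 (4.44) and in IL-33 replicates 3 (19.8) and 6 (9.36), and Adipoq had no read in IL-33 replicates 1 and 2, which allows up to 0.136 and 0.181 CPM (3 reads, counting error only). The tumors with much Adipoq were thus found in both groups. Cidec was 0.0988 to 28.7 CPM in the vehicle tumors, 0 to 19.2 in 7 IL-33 tumors and 396 in IL-33 replicate 7, and Plin1 was 0 to 6.36, 0 to 7.46 and 103 CPM. Their high and low tumors were largely those of Adipoq, with Cidec highest in vehicle replicates 5 (28.7) and 6 (24.6) and Plin1 in IL-33 replicate 6 (7.46) and vehicle replicate 5 (6.36).

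Lep, the least abundant member, had no read in 5 of 8 vehicle tumors and in 4 of 8 IL-33 tumors. Its highest vehicle level was 0.565 CPM (replicate 5), and it was 0.0909 CPM in IL-33 replicate 1, 0.601 in replicate 3, 4.49 in replicate 6 and 25.2 in replicate 7. Of the 96 reads on Lep in the 7 IL-33 tumors other than replicate 7, 86.5% came from replicate 6.

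Fabp4 differed from the other adipocyte genes in that no tumor lacked it. It was 20.4 to 162 CPM in the vehicle tumors (median 44.4), 18.5 to 190 in 7 IL-33 tumors (median 41.2) and 1274 in IL-33 replicate 7. It was high in vehicle replicate 4 (162) and IL-33 replicates 3 (158) and 6 (190), and it was 44.6 and 41.2 CPM in IL-33 replicates 1 and 2, where Adipoq had no read. Fabp4 made up from 60.7% of the summed adipocyte reads (vehicle replicate 6) to 100% (IL-33 replicate 2), and 62.1% in IL-33 replicate 7.

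**Figure D2:**
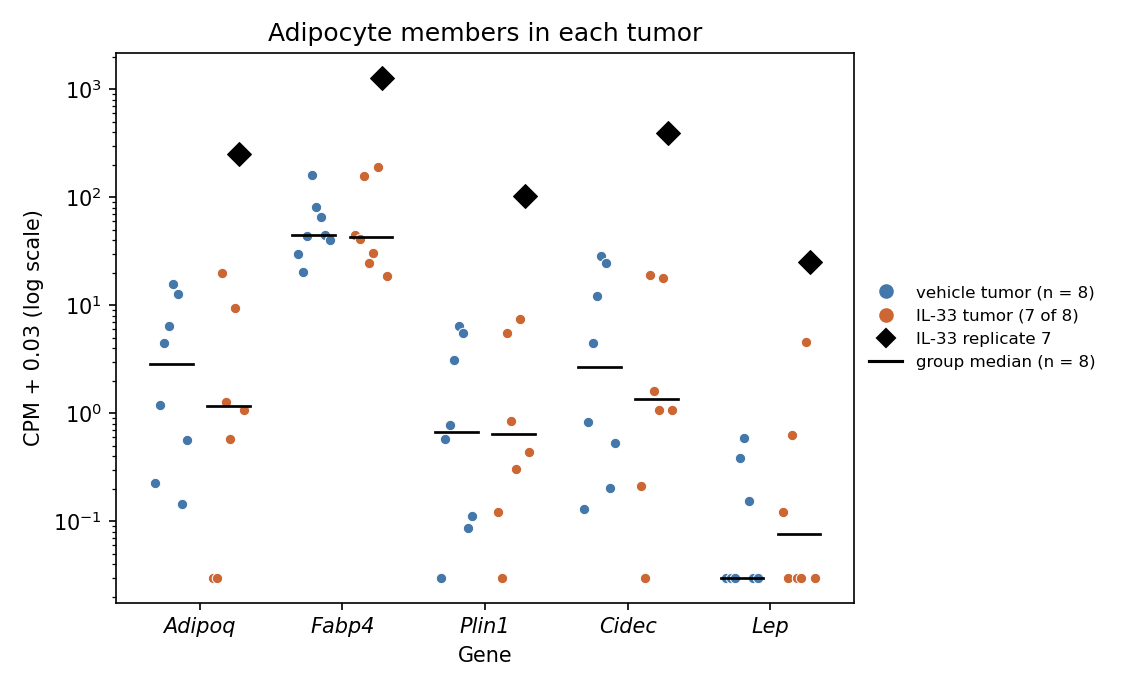
CPM of the 5 adipocyte genes in each of 16 tumors (y axis, CPM + 0.03 on a log scale), with vehicle tumors in blue, IL-33 tumors in orange, IL-33 replicate 7 as a black diamond and the median of each group of 8 as a bar. The diamond is the highest point of every gene (25.2 CPM for Lep to 1274 for Fabp4), the points of the groups overlap for each gene, and no tumor is below 18.5 CPM for Fabp4.

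Per kilobase of the longest principal transcript (RPKM), the order of the 10 genes in the vehicle tumors was led by Msln (285 ± 50.5, SD, n = 8) and Fabp4 (68.1 ± 50.4). The lowest vehicle tumor for Msln (207 RPKM) was above the highest for Fabp4 (181), and the lowest for Fabp4 (22.7) above the highest for Cidec (16.7). Cidec (5.19 ± 6.80), Bnc1 (4.82 ± 1.72) and Adipoq (3.99 ± 4.71) came next, before Wt1 (0.966 ± 0.878), Plin1 (0.730 ± 0.929), Upk3b (0.363 ± 0.241), Lrrn4 (0.199 ± 0.168) and Lep (0.0400 ± 0.0660). From Cidec down, each gene overlapped the next in range. Whether these neighbours differ within the same tumors was not tested. In IL-33 replicate 7 the order by RPKM was Fabp4 (1421), Cidec (230), Adipoq (196), Wt1 (89.2), Msln (42.7), Plin1 (36.6), Upk3b (16.9), Lep (7.73), Lrrn4 (4.79) and Bnc1 (2.24), with Msln in the fifth place and Bnc1 in the last.

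Whether IL-33 treatment was accompanied by more or less mesothelial or fat RNA in the tumors was tested gene by gene. No member passed at an adjusted p under 0.05 (edgeR's quasi-likelihood test, Benjamini-Hochberg adjustment over 16817 genes), and neither did any other gene (percent called 0). At an unadjusted p under 0.05, 2 of the 10 members were higher in the IL-33 tumors, Wt1 and Lep, where 11.2% of all genes were under this p and 9.99% were under it and higher. On the log2 scale the difference of Wt1 was 3.37 ± 1.17 (SE, adjusted p by edgeR 0.418) and that of Lep 4.48 ± 1.73 (adjusted p 0.418). By DESeq2 neither was under an unadjusted p of 0.05, with differences of 0.30 for Wt1 and 2.22 for Lep. The difference of the other members was between −0.18 for Bnc1 and 2.45 for Plin1, with an adjusted p by edgeR of 0.535 to 0.975. Of the 10 differences 9 were above 0, as were 58.3% of those of all genes.

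Without IL-33 replicate 7, no member was under an unadjusted p of 0.05, where 4.12% of 15803 genes were. Only 4 of the 10 differences were above 0 then (47.9% of all genes), and 5 turned from above to below 0. The difference of Wt1 was 0.31 ± 0.65 (log2, SE), that of Upk3b moved from 2.23 ± 1.24 to −1.27 ± 0.78, and those of Adipoq, Plin1 and Cidec moved from 2.41 ± 1.42, 2.45 ± 1.42 and 2.22 ± 1.47 to −0.27 ± 1.18, −0.06 ± 1.18 and −0.69 ± 1.23. Lep was at 2.54 ± 1.44, on the reads of IL-33 replicate 6. The adjusted p by edgeR was 0.964 or more for every member in this fit. The SE of most fat genes exceeded 1 on the log2 scale, so that a 2-fold difference between groups was not detectable with these tumors.

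Msln and Fabp4, the most deeply counted members, had narrower errors. The difference of Msln was 0.07 ± 0.39 (log2, SE) with all tumors and 0.24 ± 0.28 without IL-33 replicate 7, and that of Bnc1 was −0.18 ± 0.26 and −0.07 ± 0.24. For Fabp4 it was 1.43 ± 0.82 and 0.06 ± 0.61. The exact permutation test (two-sided, 12870 assignments of 16 tumors, on log2(CPM + 0.5)), in which the size of a single tumor's value weighs less, gave an unadjusted p of 0.264 (Lep) to 0.978 (Upk3b). Over the 6435 assignments of 15 tumors the exact permutation p was 0.114 (Upk3b) to 0.986 (Fabp4), and the groups of 8 overlapped for every member.

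**Figure D3:**
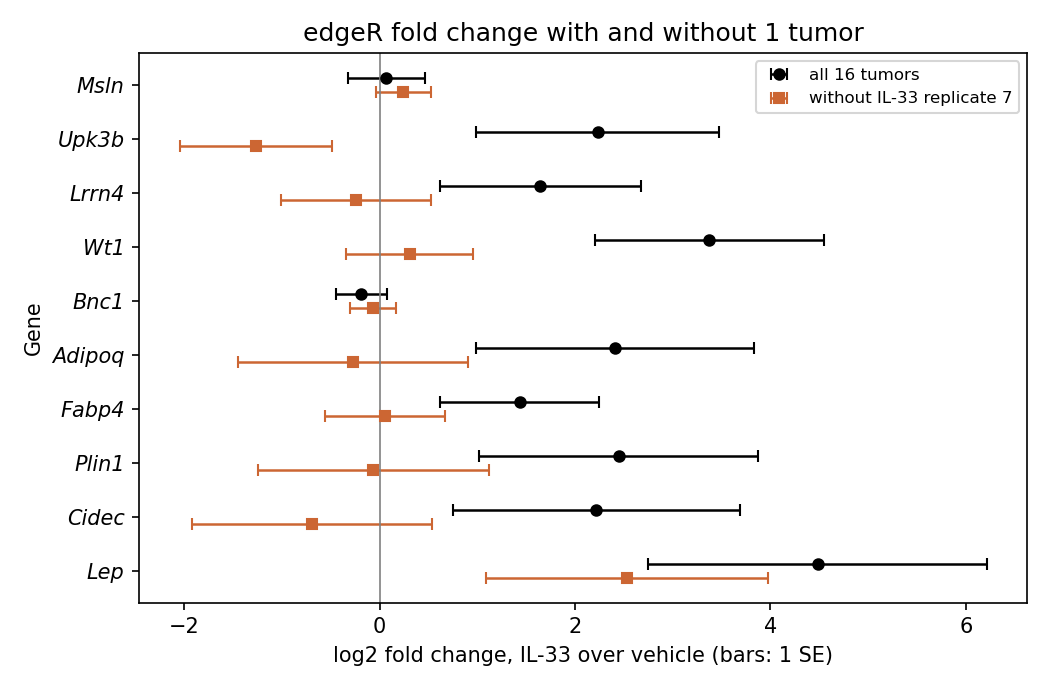
Log2 fold change of IL-33 over vehicle tumors by edgeR (x axis, bars of 1 SE) for the 10 members, with all 16 tumors (black circles) and without IL-33 replicate 7 (orange squares). Without that tumor 8 members move left, Msln (0.07 to 0.24) and Bnc1 (−0.18 to −0.07) move slightly right, and Lep (2.54) alone stays above 1.

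Summed over members, the mesothelial CPM was 476 to 799 in the vehicle tumors (median 642). It was 319 to 1279 in the IL-33 tumors, with the lowest in IL-33 replicate 7. Outside that tumor this sum is nearly all Msln, so it is not a measure of mesothelial tissue as a whole. The summed adipocyte CPM was 22.9 to 184 in the vehicle tumors (median 49.4), 21.0 to 229 in 7 IL-33 tumors (median 41.2) and 2051 in IL-33 replicate 7. The sum over Upk3b, Lrrn4 and Wt1, chosen after the values had been seen, was 0.457 to 7.31 CPM in the vehicle tumors, 0.4998 to 7.14 in 7 IL-33 tumors and 216 in IL-33 replicate 7. In a whole tumor, fewer cells of a type and less RNA per cell cannot be told apart, and this holds for every level given here.

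**Figure D4:**
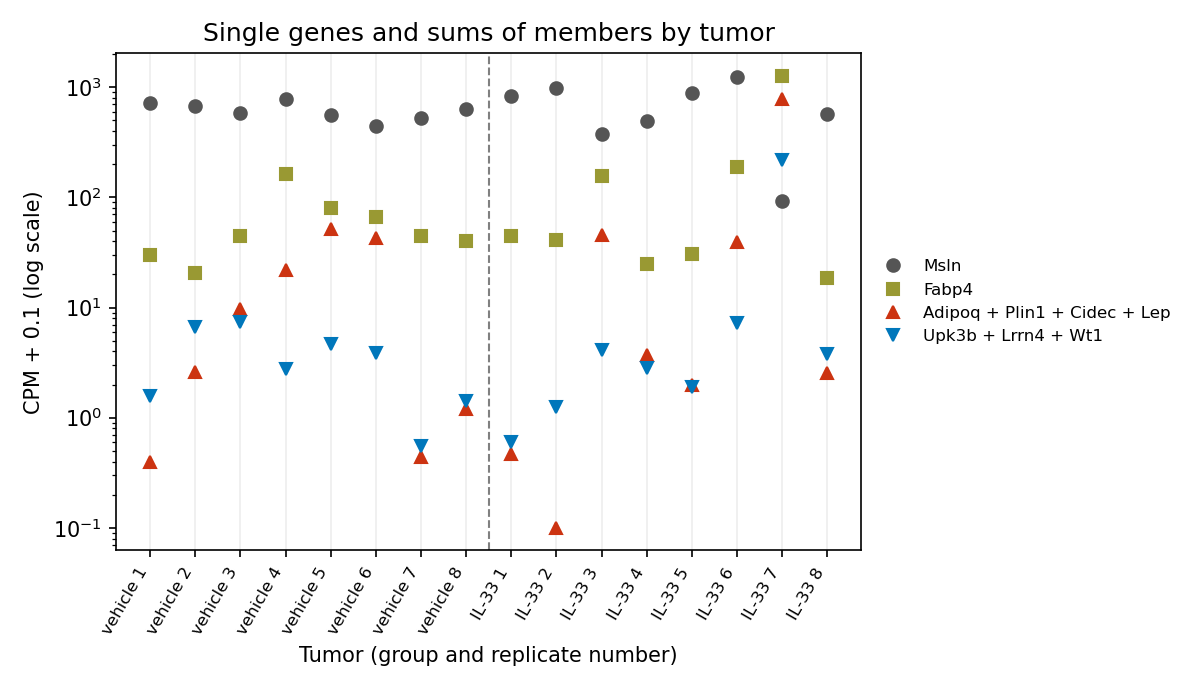
Msln, Fabp4, the sum of Adipoq, Plin1, Cidec and Lep and the sum of Upk3b, Lrrn4 and Wt1 in each tumor (x axis, group and replicate; y axis, CPM + 0.1 on a log scale; the dashed line parts the groups). The sum of the 4 fat genes runs from 0 CPM (IL-33 replicate 2) over 51.4 (vehicle replicate 5) to 778 (IL-33 replicate 7), where Fabp4 and both sums are highest and Msln is lowest.

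The members' variation from tumor to tumor separated them further. Over the 15 tumors without IL-33 replicate 7, Spearman's rho between Adipoq, Plin1 and Cidec was 0.93 to 0.96, and between Upk3b, Lrrn4 and Wt1 0.46 to 0.76. The 9 pairs across these sets, mesothelial with fat, reached 0.45 to 0.76. Msln and Bnc1 had a rho of −0.16 to 0.49 with Upk3b, Lrrn4 and Wt1 and of −0.46 to −0.04 with Adipoq, Plin1 and Cidec, and of 0.33 with each other. Upk3b had a higher rho with each of Adipoq, Plin1 and Cidec (0.61 to 0.67) than with Bnc1 (0.25), and so did Lrrn4 (0.70 to 0.76, against 0.43). For Wt1 the values were close, 0.45 to 0.57 with Adipoq, Plin1 and Cidec and 0.49 with Bnc1, and within the 8 vehicle tumors its rho with Bnc1 was 0.88 and with the 3 fat genes 0.26 to 0.36. With Lep and Fabp4 the rho of Upk3b, Lrrn4 and Wt1 was lower, −0.11 to 0.34. Fabp4 had a rho of 0.50 to 0.56 with Adipoq, Plin1 and Cidec and of 0.85 with Lep, whose values are mostly 0 or a few reads. With all 16 tumors these ranges were 0.94 to 0.96 for the fat genes and 0.55 to 0.80 for Upk3b, Lrrn4 and Wt1. All of these are descriptions over tumors that share libraries and treatment groups, and CPM of a gene moves with every abundant gene in the same library.

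**Figure D5:**
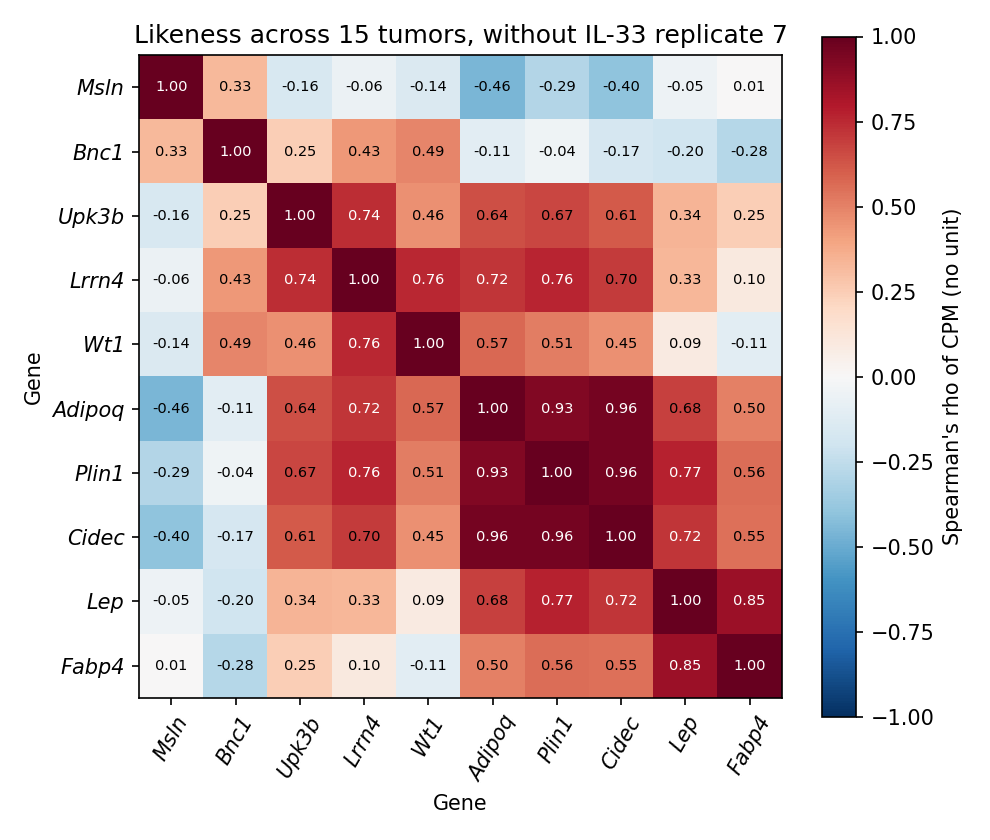
Spearman's rho between the CPM of each pair of members (both axes, genes) over 15 tumors, without IL-33 replicate 7, from −1 (blue) to 1 (red). Adipoq, Plin1 and Cidec form the darkest block (0.93 to 0.96), Upk3b, Lrrn4 and Wt1 are red with them (0.45 to 0.76), and Msln is pale or blue with every gene but Bnc1 (0.33).

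The summed levels of other lists had rho values of both signs with Msln and Bnc1. Over the 15 tumors that of Msln was −0.61 with 12 macrophage genes (such as Lyz2 and C1qa), −0.56 with 12 endothelial genes (such as Pecam1) and −0.53 with the ovary genes. At the other end were 0.27 with smooth muscle genes, 0.35 with epithelial genes and 0.46 with 18 other mesothelial genes. In the vehicle tumors, Slpi (mean 357 CPM) and Krt19 (184) led the sum of these 18 genes (median 452). Taken singly, the 18 had a median rho of −0.21 with Msln, from −0.66 to 0.71. The rho of Bnc1 ran from −0.64 with pancreas genes and −0.46 with macrophage genes upward. Its highest values among the lists were 0.41 with ovary genes, 0.45 with lymphoid stroma genes and 0.60 with genes of fat storage. The pancreas sum was only 1.38 to 7.07 CPM in the vehicle tumors, with Cela1 (mean 2.54) its most abundant gene. Fasn (vehicle mean 373 CPM), Scd1 (233) and Acly (205) led the fat storage sum, and Inhbb (83.6) the ovary sum. With Adipoq, Plin1 and Cidec the rho of Bnc1 was −0.17 to −0.04. Within the 8 vehicle tumors alone the rho with macrophage and endothelial genes was −0.14 and −0.12 for Msln and −0.17 and 0.02 for Bnc1. The genes whose level over 16 tumors was most like the summed mesothelial CPM, that is like Msln, were Trpc4ap (rho 0.86), Klk8 (0.85), M1ap (0.84), Nadsyn1 (0.84) and Anxa8 (0.84). Klk8 encodes a secreted serine protease and Anxa8 an annexin. Both were lower in IL-33 replicate 7 (4.16 and 46.7 CPM) than their vehicle mean (19.8 and 132 CPM).

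Most like the summed adipocyte CPM were Mgll (rho 0.94), the lipase that splits monoacylglycerol, Cd209b (0.94), Ctsd (0.92), a lysosomal protease, Lrg1 (0.91) and Cyp4b1 (0.90). For the sum without Fabp4, chosen after the values had been seen, they were Cyp2e1 (0.96), Cfd (0.96), which encodes the serum protease adipsin made by fat, Ces1d (0.94), Glb1l2 (0.94) and Cdo1 (0.93). For Upk3b, Lrrn4 and Wt1 they were Smpd3 (0.92), Abat (0.88), Gata6 (0.86), Cyp2e1 (0.85) and Pkhd1l1 (0.85). Cyp2e1, which oxidizes small organic molecules, is in the lists of both sums, at 11.4 CPM in the vehicle mean and 354 in IL-33 replicate 7.

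A wider list of 18 mesothelial genes showed the same split. In IL-33 replicate 7, 15 of the 18 had their highest level (43.0% of all genes did). At an unadjusted p under 0.05, 4 of 18 were higher in the IL-33 tumors with all 16 (9.99% of genes) and 0 were lower (1.17%), and without IL-33 replicate 7, 0 were higher (1.83%) and 1 lower (2.29%). None passed the adjustment in edgeR. The 4 were Tcf21 and Gata6, transcription factors, Rspo1, a secreted enhancer of Wnt signaling, and Igfbp5, which binds insulin-like growth factors, and the 1 was Pdpn, a mucin-like surface protein. Igfbp5 was 488 CPM in IL-33 replicate 7 and at most 12.6 in any other tumor, and Gata6 was 61.5 and at most 5.15. The median difference of the list was 1.49 on the log2 scale with all tumors and −0.66 without IL-33 replicate 7, against 0.06 and −0.01 over all genes.

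The 3 most abundant genes of that list differed in IL-33 replicate 7, where Igfbp5 peaked. Slpi, a secreted protease inhibitor, was 357 ± 150 CPM in the vehicle tumors (SD, n = 8) and 79.7 in IL-33 replicate 7, and Krt19, a keratin of simple epithelia, was 184 ± 167 and 211 CPM, within its range in the other tumors. Over 15 tumors Krt19 had a rho of 0.71 with Msln and was the only 1 of the 18 above 0.5 with it, whereas 7 of the 18 were above 0.5 with the sum of Upk3b, Lrrn4 and Wt1, led by Pkhd1l1 and Gata6 (both 0.82).

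The genes of fat identity and hormones behaved as Adipoq did in part. Of 17 such genes, 15 were highest in IL-33 replicate 7 (43.0% of all genes), 3 were higher in the IL-33 tumors at an unadjusted p under 0.05 with all 16 (Nnat, Pparg and Lgals12; 9.99% of genes) and 0 were lower (1.17%), and without IL-33 replicate 7, 0 passed in either direction (1.83% and 2.29%). Over 15 tumors 9 of the 17 had a rho above 0.5 with the sum of Adipoq, Plin1, Cidec and Lep, led by Cfd (0.95), Adrb3 (0.91), the fat β-adrenergic receptor, and Lgals12 (0.89), a galectin of lipid droplets. Cfd was 54.4 ± 76.4 CPM in the vehicle tumors and 1494 in IL-33 replicate 7. Pparg, the nuclear receptor that drives fat cell formation and is also present in macrophages, had a rho of −0.34 with this sum. The median difference of the list was 1.33 on the log2 scale with all tumors and −0.52 without IL-33 replicate 7.

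Of 24 genes of fat storage and lipolysis, 19 were highest in IL-33 replicate 7 (43.0% of all genes). At an unadjusted p under 0.05, 5 were higher (9.99% of genes) and 4 lower (1.17%) with all tumors, and 0 higher (1.83%) and 5 lower (2.29%) without IL-33 replicate 7, in each case with none past the adjustment in edgeR. Plin4, a lipid droplet protein, was 5.72 ± 5.10 CPM in the vehicle tumors and 350 in IL-33 replicate 7, and Pck1 was 1.203 ± 1.68 and 137. Of the genes of fatty acid synthesis, Fasn, Scd1 and Elovl6 were lower at this unadjusted p in both fits, while Acly, which makes the acetyl-CoA used for it, was not in either (unadjusted p by edgeR 0.338 and 0.454). Fasn, the fatty acid synthase, was 373 ± 118 CPM in the vehicle tumors and 283 ± 73.2 in 7 IL-33 tumors (log2 difference −0.44, adjusted p by edgeR 0.964), Scd1, which desaturates fatty acids, 233 ± 118 and 142 ± 49.0 (−0.72, 0.964), and Elovl6, which elongates them, 32.8 ± 13.5 and 21.2 ± 7.18 (−0.66, 0.964). These abundant genes did not vary with the fat markers, since their rho with the sum of Adipoq, Plin1, Cidec and Lep was 0.01, 0.05 and −0.09. The median difference of the list was 0.67 and −0.24 on the log2 scale.

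Of 7 genes of thermogenic (brown or beige) fat, 6 were tested with all tumors and 5 without IL-33 replicate 7, and 0 were under an unadjusted p of 0.05 in either fit. Dio2, which activates thyroid hormone, was 30.1 ± 23.0 CPM in the vehicle tumors, 20.2 ± 15.7 in 7 IL-33 tumors and 111 in IL-33 replicate 7.

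Markers of several other tissues were high in IL-33 replicate 7, as were 8 of the 10 members, whereas Msln and Bnc1 were low. Not every list followed, since 2 of 12 macrophage genes and 4 of 9 liver genes tested were highest there (43.0% of all genes). Of 15 ovary genes, 15 were highest there (43.0% of all genes). With all tumors, 12 were higher in the IL-33 group at an unadjusted p under 0.05 by edgeR (9.99%). Without IL-33 replicate 7, 9 could be tested and 0 were higher (1.83%). Of 15 uterus and oviduct genes 15 were higher with all tumors (9.99%), and without that tumor 11 could be tested and 0 were higher (1.83%). Both lists were chosen with this tumor known to stand apart, and some of their genes were tested only through its reads. The counts thus describe this tumor and are no support for a difference between the groups. Hsd3b1, a steroid-forming enzyme of the ovary, was 743 CPM in IL-33 replicate 7 and at most 0.0584 in any other tumor, and Ovgp1, the oviduct glycoprotein, was 923 and at most 2.83. For smooth muscle, 10 of 10 genes were highest there, with Myh11 at 1541 and at most 14.4 CPM, and for endothelium 12 of 12, with a sum of 1649 and at most 380 CPM. Wt1 and Gata6 are also expressed in the ovary and the uterus, and the part of these tissues in the mesothelial values of this tumor was not tested. Upk3b, Lrrn4 and Wt1 were 46.7, 24.1 and 92.3 times the vehicle mean there, and Adipoq, Plin1 and Cidec 49.0, 50.1 and 44.4 times.

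Among the other 15 tumors, Adipoq, Plin1 and Cidec had a rho of 0.15 to 0.25 with the ovary genes and of −0.06 to 0.07 with the uterus and oviduct genes. In the vehicle tumors these sums (medians of 103 and 21.3 CPM) were largely Inhbb (mean 83.6) and Esr1 (mean 15.5). These rho values hence mostly reflect those genes. The other ovary genes differed in these 15 tumors. Foxl2 had no read, and Inha and Nr5a1 were at most 0.515 and 0.165 CPM. Amh, Gdf9 and Cyp11a1 reached 0.99, 1.09 and 1.37 CPM, Star 7.23 and Inhba 20.8. Adipoq ran from 0 to 19.8 CPM in the same tumors. With 10 liver genes, whose sum of 0.724 to 39.8 CPM includes Cyp2e1, the rho over these tumors was 0.81 to 0.85 for Adipoq, Plin1 and Cidec and 0.81, 0.80 and 0.52 for Upk3b, Lrrn4 and Wt1. Cyp2e1 is the most abundant gene of that sum. It is also named above for its likeness to the fat genes. Its rho over these tumors with the sum of Adipoq, Plin1, Cidec and Lep was 0.95. The rho of the other liver genes with the same fat sum ran from −0.21 (Cps1) to 0.675 (Ahsg). It was 0.39 for Apoa2, and −0.03 to 0.25 for Alb, Fgb, Fgg and Apoa1. The hepatocyte gene Alb was at most 22.9 CPM, in the vehicle group, and had no read in the 7 other IL-33 tumors. The part of these tissues in the levels of the fat and mesothelial genes was not tested.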

How the data were processed

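Poly(A) RNA of 16 abdominal tumors, 8 per group, was sequenced, and the authors deposited, for each tumor, a table of unnormalized read counts per gene. The submitters' processing notes name HISAT2, featureCounts and mm10; the annotation and the use of strand are not given in the sources used here. Tumors were assigned to groups and replicate numbers by their labels. Symbols, coordinates and lengths were taken from GENCODE M21 (GRCm38), promoter windows from RefSeq (GRCm38.p6). The members and all gene lists were chosen with earlier results of these data known.

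Genes with at least 10 counts in all were tested with edgeR 4.0.16 (R 4.3.3; TMM, quasi-likelihood test, group as the only term) and Benjamini-Hochberg adjustment, with all 16 tumors and without IL-33 replicate 7. For each member, an exact permutation test (two-sided, on log2(CPM + 0.5)) was added, 20 tests in all, unadjusted, with 0.0002 as the smallest p that the 12870 or 6435 assignments can give. Sums over members and correlations are descriptions. Besides the members, the text names from each list it describes in detail the most abundant genes and those with an unadjusted p under 0.05, and the 5 genes (mean of at least 1 CPM) with the highest Spearman's rho with a sum over members; Adrb3, Pkhd1l1 and the genes most like Upk3b, Lrrn4 and Wt1 or Adipoq, Plin1, Cidec and Lep were chosen after their values were seen. Alternatives were DESeq2 1.42.0, other scalings, filters and pseudocounts, the replicate number as a block, and leaving out each tumor. The models and the permutation test were tested on simulated data. Intervals of 3 counts cover counting error only.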

Additional observations from a re-analysis of the deposited data

Results flagged for a closer look

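In 20 groups of 8 tumors (10 members in each treatment group, on the log2(CPM + 0.5) scale), the gap between the highest or lowest tumor and its neighbour was set against the whole range of the group, with 0.526 as the critical value. By chance about 1 in 20 independent groups would pass, and 5 did. The groups were not independent, since members vary together over the same tumors, and IL-33 replicate 7 was known beforehand to stand apart. The number that passed can therefore not be set against this rate. In the IL-33 group, replicate 7 was the high tumor for Upk3b (gap ratio 0.688, 59.8 CPM), Wt1 (0.637, 139 CPM) and Lrrn4 (0.599, 17.8 CPM), and the low tumor for Msln (0.538, 92.5 CPM). In the vehicle group, replicate 4 was the low tumor for Bnc1 (0.585, 7.21 CPM). No fat gene was among the 5, although each was highest in IL-33 replicate 7. Genes of the ovary, uterus and smooth muscle were high in the same tumor, and their part in these values was not tested. Without IL-33 replicate 7, the differences of Upk3b, Lrrn4 and Wt1 were −1.27, −0.24 and 0.31 on the log2 scale. Without vehicle replicate 4 as well, that of Bnc1 was −0.17 in place of −0.07.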

How the results depend on the processing

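With all tumors, edgeR placed 1680 genes higher and 196 lower at an unadjusted p under 0.05. The number higher was 424 with DESeq2, 499 with edgeR's filterByExpr and 246 with the replicate number as a block, and 289 (without IL-33 replicate 7) to 1902 with 1 tumor left out. The number lower was 101 with total counts alone and 72 with the block, and 111 (vehicle replicate 4) to 362 (IL-33 replicate 7) with 1 tumor left out, 307 when this was IL-33 replicate 3 and 127 when it was IL-33 replicate 5. Over the 15 tumors, 289 were higher and 362 lower, against 162 and 229 with filterByExpr, 153 lower with the block, and 330 and 329 with vehicle replicate 4 left out too. DESeq2 then called 1 gene at an adjusted p under 0.05, Alas2, named after its value was seen, where edgeR called 0. Why these counts moved was not tested.

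Among the members, signs turned as follows on the log2 scale. With DESeq2, whose default settings replace outlying counts, Upk3b was −1.18, Lrrn4 −0.25, Adipoq −0.31, Plin1 −0.11 and Cidec −0.69. With the replicate block, Msln was −0.19, Upk3b −0.86, Lrrn4 −0.15, Adipoq −0.63, Cidec −0.31 and, without IL-33 replicate 7, Fabp4 −0.0019. With TMM-scaled CPM, the permutation difference of Upk3b was −0.046 in place of 0.04. Leaving out 1 tumor gave −0.15 to 0.27 for Msln, −1.27 to 2.44 for Upk3b, −0.24 to 1.91 for Lrrn4, −0.27 to 2.86 for Adipoq, −0.062 to 2.89 for Plin1 and −0.69 to 2.69 for Cidec, the lowest without IL-33 replicate 7 except for Msln (without IL-33 replicate 6). Plin1 was 0.19 without both IL-33 replicate 7 and vehicle replicate 4. Wt1 and Lep were under an unadjusted p of 0.05 in 15 of 16 fits that left out 1 tumor, the exception being IL-33 replicate 7, and Fabp4 in 1 of 16, without vehicle replicate 4 (2.04, unadjusted p by edgeR 0.0234). Both lost it with DESeq2 (Wt1 0.30, Lep 2.22, unadjusted p 0.643 and 0.254) and with the replicate block (0.66 and 2.70, unadjusted p 0.528 and 0.284). No adjusted p of a member was under 0.05 in any fit. Lep was removed by filterByExpr, and no value was computed. The difference of the mean log2 of the summed mesothelial CPM was 0.06, −0.07 to 0.21 with 1 tumor left out, and 0.61 for Upk3b, Lrrn4 and Wt1 alone, a sum chosen after seeing the data, which was −0.16 without IL-33 replicate 7. That of the summed adipocyte CPM was 0.53, and −0.12 without IL-33 replicate 7.

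No clear pairing by replicate number was seen. The deviations of same-numbered tumors correlated by −0.34 to 0.41, with 4 of 8 pairs over 0.1. Of 16 tumors, 3 correlated best with their own number. The labels do not say what the numbers mean, and this check cannot exclude that some same-numbered tumors were paired. Depth limits Upk3b, Lrrn4, Plin1 and Lep, whose vehicle tumors together hold 173, 100, 251 and 15 reads.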
